A study of Rattus norvegicus with 16 samples.

Results

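The myosin-gene miRNAs miR-208a, miR-208b and miR-499 are excised from introns of the heart's myosin heavy chain genes. The array held 6 arms of these hairpins among its 677 rat miRNAs, and all 6 are described here: rno-miR-208, rno-miR-208*, rno-miR-208b-3p, rno-miR-208b-5p, rno-miR-499 and rno-miR-499*. They were chosen by the exact name of the array's feature and not by any measured value, though with earlier results of these data known. The hearts came from rat pups of HHR, the hypertrophic heart rat, an inbred strain whose heart enlarges without raised blood pressure, and of NHR, the normal heart rat, its control strain. Each strain gave 4 female and 4 male pups, all 2 days old and killed with pentobarbitone, with no treatment named. Total RNA of each animal, 100 ng, was labelled with Cy3 and hybridised to its own Agilent rat miRNA array (release 16.0), with no pooling, so a replicate is an animal. The labels name the tissue as whole heart in one place and describe ventricles separated from atria in another. The sources used here do not name litters.

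Myosin heavy chain is the motor protein of the muscle's thick filament. Myh6 encodes the fast alpha chain, Myh7 the slow beta chain and Myh7b a related slow myosin, and each carries a miRNA in an intron that is processed from the same transcript. In rodents the heart changes from mostly beta to mostly alpha myosin around birth, and cardiac overload raises the beta chain again. miR-208a, miR-208b and miR-499 are known as a network that acts on repressors of slow muscle genes, and miR-208a is needed in the adult mouse heart for the return of beta myosin under stress.

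All 6 array names matched a mature arm in RefSeq, with coordinates on GRCr8. The arrays' own annotation names the rn4 build, so no position was carried over, and the match rests on the names. The mature sequences are shown because the arms are near copies of each other, which bears on what a short probe can separate. Capitals mark the seed, bases 2 to 8 from the 5′ end, the stretch that pairs with target mRNAs.
rno-miR-208 (miR-208a-3p): aUAAGACGagcaaaaagc
rno-miR-208b-3p: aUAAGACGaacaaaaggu
rno-miR-499 (miR-499-5p): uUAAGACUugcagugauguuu
rno-miR-208* (miR-208a-5p): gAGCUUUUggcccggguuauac
rno-miR-208b-5p: aAGCUUUUugcucgcguuau
rno-miR-499* (miR-499-3p): aACAUCACagcaagucugugcu

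The 3p arms of miR-208a and miR-208b shared the seed UAAGACG, which no other of the 693 mature rat miRNAs in the RefSeq table holds. They were identical at 15 of 18 aligned positions and differed by G10A, A16G and C18U, given as the miR-208a base, the position from the 5′ end and the miR-208b base. Their 5p arms shared the seed AGCUUUU, were identical at 16 of 20 positions and differed by G1A, G9U, C12U and G15C. The seed of miR-499-5p, UAAGACU, differs from that of miR-208a-3p by G8U and was held by no other mature rat miRNA in the table. Over all 18 aligned positions miR-499-5p matched miR-208a-3p at 10 and miR-208b-3p at 8.

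The hairpins show where each arm lies, with both mature arms in capitals.
miR-208a, within Myh6, chr15:32395552-32395634 (minus strand): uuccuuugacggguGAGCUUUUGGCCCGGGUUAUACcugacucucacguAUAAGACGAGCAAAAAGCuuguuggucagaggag
miR-208b, within Myh7, chr15:32421615-32421726 (minus strand): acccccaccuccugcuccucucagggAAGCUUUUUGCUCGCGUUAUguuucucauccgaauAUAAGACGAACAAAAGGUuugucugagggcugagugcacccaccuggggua
miR-499, within Myh7b, chr3:164570612-164570676 (plus strand): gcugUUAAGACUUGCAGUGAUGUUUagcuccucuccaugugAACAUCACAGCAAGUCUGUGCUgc
The miR-208a and miR-208b hairpins lie 26.0 kb apart on the same strand, and miR-499 is on another chromosome. RefSeq also places rno-miR-3546 on the opposite strand of the miR-208a hairpin, and 20 of its 22 bases are complementary to miR-208a-5p:
rno-miR-3546: auaacccgggccaaaagcucac

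Each array carried 20 spots per miRNA and 13540 miRNA spots, none of them saturated, and between 200 and 239 miRNAs were detected per array. The scanner software marks each spot that is well above background, and separately marks each miRNA as detected or not on an array; both marks are used here as it gave them. Levels are processed signals, scaled by each array's 75th percentile over the 258 probes detected on all 16 arrays, and limma was run on the 233 miRNAs with a detection mark on 4 or more arrays. In that test 127 of the 233 (54.5%) differed between the strains, 106 lower and 21 higher in HHR, and the median difference over all 233 was -0.11 on the log2 scale. Scaled by the percentile over all probes instead, 21 were lower and 134 higher, with a median of 0.17. Before scaling, HHR arrays were brighter, with a 75th percentile of 469.6 ± 37.3 against 378.4 ± 87.3 intensity units for NHR (SD over 8 arrays; exact permutation p = 0.0191, two-sided). Every strain difference below therefore carries the choice of scale. For the arms detected on all 16 arrays, values relative to the median are given over both sexes and by sex. Values within arrays are given over both sexes.

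Of the 3 hairpins, one arm of each was detected on all 16 arrays. For miR-499 it was the 5p arm, with 320 of 320 spots well above background. For miR-208a it was the star arm: rno-miR-208* had 219 of 320 spots marked, 8 to 19 of 20 on an array. For miR-208b it was the 3p arm, with 163 of 320 spots marked and 2 to 19 of 20 on an array. The miR-208* spots divided as 117 of the HHR and 102 of the NHR arrays, and the miR-208b-3p spots as 88 and 75, so both strains showed both arms.

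The partner arms were not seen, or barely. rno-miR-208 (miR-208a-3p), the arm usually named as the active product, had 0 of 320 spots well above background, with an unscaled signal of 1.199 to 4.38 intensity units. The miR-208b-5p arm also had 0 of 320 spots, at -1.90 to 0.695 units. miR-499* was marked in 5 of 320 spots, 4 on the array of HHR male 4 and 1 on that of NHR male 1, and was called detected on 2 arrays, HHR male 4 and NHR male 2, so the marks of spot and miRNA differed there. The 95th percentile of negative control spots lay between 2.95 and 5.77 units on the 16 arrays. These 3 arms have only a bound, so no strain difference was tested for them, and an unmarked probe does not show that the RNA was absent. Among the probes for miR-208, A_26_P00003142 read 2.70 to 7.33 unscaled units and A_26_P00003141 -0.726 to 2.06, neither of them well above background on any array. Signal from miR-208b-3p on miR-208 probes or the reverse was not tested, since probe sequences are not used here. rno-miR-3546, opposite miR-208a-5p, had 0 of 320 spots well above background, so the miR-208* signal came without a signal on the probes for its antisense neighbour.

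**Figure D1:**
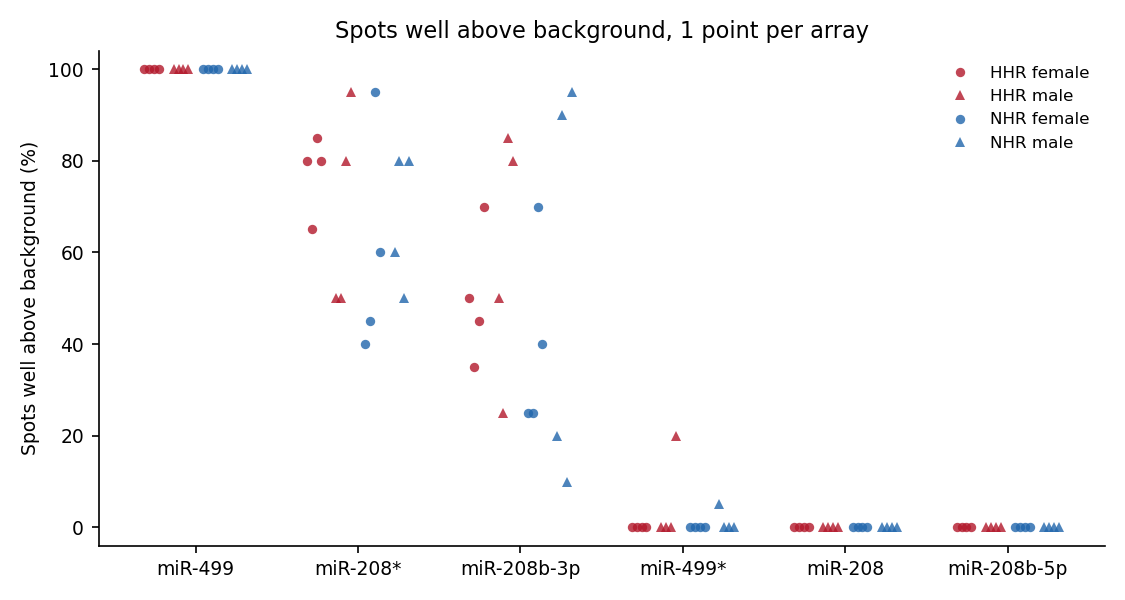
Percent of the 20 spots of each arm that were well above background (y axis), 1 point per array, for the 6 arms (x axis); red is HHR, blue NHR, circles are females and triangles males. miR-499 sits at the top on all 16 arrays, miR-208* and miR-208b-3p scatter widely within every group, and miR-208 and miR-208b-5p stay at 0.

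miR-499, the myosin 7b miRNA, was lower in every HHR heart than in any NHR heart on the scaled level. The HHR females, replicates 1 to 4, read 151, 150.2, 141 and 159 scaled units and the HHR males 154, 151, 152 and 153. The NHR females read 189.8, 178, 189.8 and 177, and the NHR males 183, 188, 186.5 and 178. The highest HHR array lay below the lowest NHR array, a separation in the lower direction that 11.2% of the 233 tested miRNAs also showed. The spread inside a group was small, from 0.015 (HHR males) to 0.069 (HHR females) as SD of the log2 level (n = 4). The median error from the repeated spots of one array was 0.012. Group means on the log2 scale, in order, were 7.23 in HHR females, 7.25 in HHR males, 7.52 in NHR females and 7.52 in NHR males. Neighbours of one strain overlapped.

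On the unscaled signal the picture was different, since NHR arrays ranged from 132 to 229 intensity units (median 143) and HHR arrays from 152 to 189.9 (median 172), so the strains overlapped fully. The scaled mean difference of miR-499, HHR minus NHR, was -0.28 ± 0.027 log2 units (SE, 8 against 8; 95% interval -0.34 to -0.22), a 1.21-fold lower level with an adjusted p of 1.80e-06 by limma. All 3 arms that could be tested were called lower in HHR, where 45.5% of all 233 miRNAs were, so that share of calls must be read against a general shift. Relative to the median of all tested miRNAs the miR-499 difference was -0.17. A still lower difference was found for 24% of the tested miRNAs.

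miR-208*, the 5p arm from the alpha myosin gene, overlapped between the strains. HHR females read 17.3, 16.1, 17.2 and 17.8 scaled units and HHR males 14.7, 15.2, 17.1 and 18.0. NHR females read 17.6, 17.3, 20.1 and 19.9 and NHR males 18.7, 16.4, 18.9 and 17.3. Only the NHR females 3 and 4 and the NHR males 1 and 3 stood above all HHR arrays. The log2 group means were 4.02 ± 0.14 in HHR males, 4.09 ± 0.059 in HHR females, 4.15 ± 0.098 in NHR males and 4.22 ± 0.11 in NHR females (SD, n = 4), each range overlapping the next. The strain difference was -0.13 ± 0.052 (SE; limma adjusted p = 0.0433), which is -0.027 relative to the median of all tested miRNAs. 40.8% of tested miRNAs had a lower difference. Leaving out one array at a time kept the sign, -0.16 to -0.11, but ended the call for 9 of the 16 arrays: HHR females 1, 2 and 3 (adjusted p = 0.0613, 0.0829 and 0.0642), HHR males 1 and 2 (0.0897 and 0.0848), NHR females 3 and 4 (0.0817 and 0.0890) and NHR males 1 and 3 (0.0811 and 0.0843).

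miR-208b-3p, the arm from the beta myosin gene, also overlapped. HHR females read 13.5, 13.0, 14.4 and 15.5 scaled units and HHR males 16.5, 13.9, 15.8 and 14.98. NHR females read 16.9, 14.5, 17.7 and 17.4 and NHR males 16.4, 16.9, 14.1 and 18.0. The HHR females lay lowest as a group and the NHR males held both a low and the highest array. The log2 means rose from 3.81 ± 0.11 in HHR females through 3.93 ± 0.10 in HHR males and 4.02 ± 0.15 in NHR males to 4.05 ± 0.13 in NHR females (SD, n = 4), with overlap at every step. The strain difference was -0.17 ± 0.061 (SE; limma adjusted p = 0.0354) and -0.059 relative to the median. 33.5% of tested miRNAs had a lower difference. Without one array the difference stayed between -0.20 and -0.14, and the call was lost without any of 10 arrays: HHR females 1 and 2 (adjusted p = 0.0630 and 0.0688), HHR males 2 and 4 (0.0690 and 0.0602), NHR females 1, 3 and 4 (0.0584, 0.0637 and 0.0692) and NHR males 1, 2 and 4 (0.0571, 0.0597 and 0.0626).

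The repeated-spot error of one array, 0.046 for miR-208* and 0.065 for miR-208b-3p (median SE, log2), compares with an SD between animals of 0.059 to 0.14 and of 0.10 to 0.15 in the 4 groups.

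**Figure D2:**
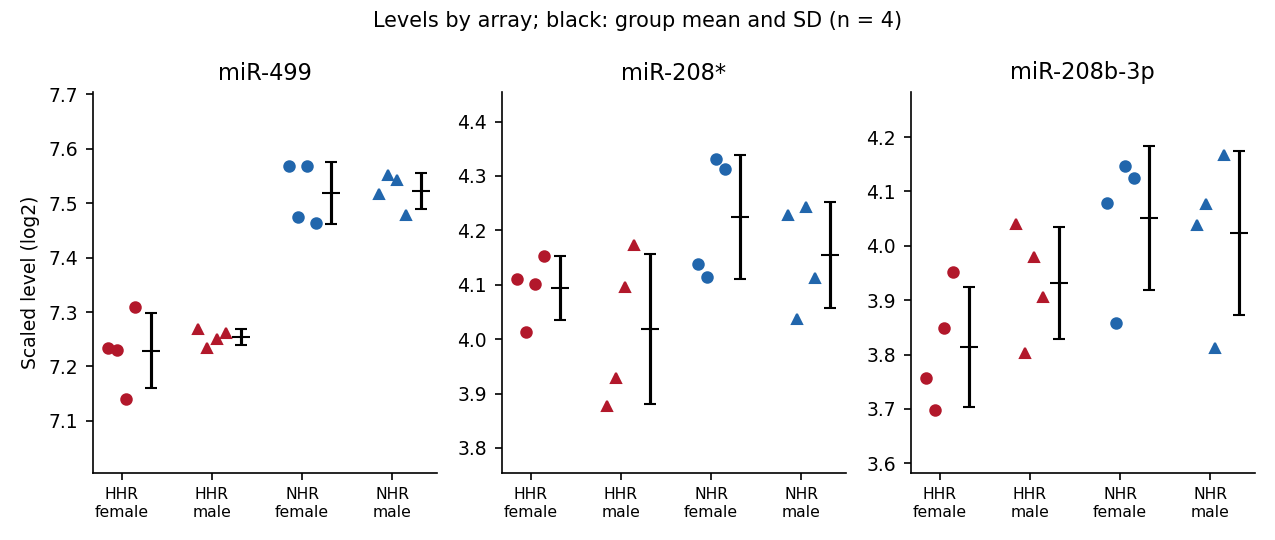
Scaled log2 level (y axis) of the 3 detected arms in the 4 groups (x axis), 1 point per animal, with the group mean and SD in black (n = 4); all panels span the same range. For miR-499 the 8 HHR arrays lie below the 8 NHR arrays, while for miR-208* and miR-208b-3p the strains overlap.

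The 2 miR-499 probes gave nearly the same difference, -0.28 ± 0.032 for A_26_P00001738 and -0.28 ± 0.025 for A_26_P00001739 (SE; limma adjusted p over 355 probes = 9.35e-06 and 6.14e-07). For miR-208* the probe that was well above background on all 16 arrays, A_26_P00003205, fell by 0.17 (adjusted p = 0.00502 by limma), and A_26_P00003204, above background on 8 arrays, read -0.070 (adjusted p = 0.472). For miR-208b-3p the probe above background on 15 arrays, A_26_P00002814, fell by 0.19 (limma adjusted p = 0.00629). Its other probes, A_26_P00002812 and A_26_P00002813, were above background on 6 arrays each and read -0.15 and -0.14 (adjusted p = 0.126 and 0.305). So for each dim arm only its brightest probe was called by itself, while its other probes also read lower. Fits without a probe were not run. Of all probes tested, 46.8% were called lower.

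**Figure D3:**
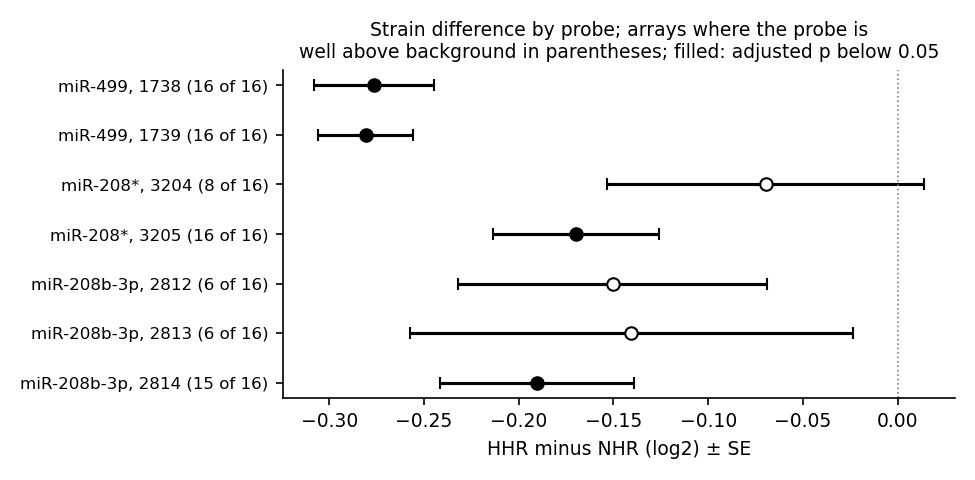
Strain difference of each probe of the 3 detected arms (x axis, log2, HHR minus NHR, with SE), labelled by the last digits of the probe name and the number of arrays where it was well above background; filled points have an adjusted p below 0.05. Both miR-499 probes lie at -0.28, and for the other arms only the probe marked on 15 or 16 arrays is filled.

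By sex, miR-499 was lower in HHR females (-0.29 ± 0.038 SE; limma adjusted p = 5.31e-05) and in HHR males (-0.27 ± 0.038; adjusted p = 0.000168), where 38.6% and 16.7% of the tested miRNAs were called lower. miR-208b-3p was called lower in females (-0.24 ± 0.086; limma adjusted p = 0.0381) and read -0.092 ± 0.086 in males (adjusted p = 0.446). That call in females was lost without HHR female 1, 2 or 3 (adjusted p = 0.0863, 0.0982 and 0.0583) or NHR female 1, 3 or 4 (0.0841, 0.0857 and 0.0968). miR-208* read -0.13 in females and -0.14 in males, with adjusted p of 0.164 and 0.212 by limma. Relative to the median of all tested miRNAs in that sex, miR-499 was -0.17 in females and -0.18 in males. On the same measure miR-208b-3p was -0.12 in females and -0.0060 in males, and miR-208* -0.0094 and -0.050. The difference between the sexes in the strain effect was itself tested: males minus females was 0.15 ± 0.12 for miR-208b-3p, 0.021 ± 0.054 for miR-499 and -0.0060 ± 0.10 for miR-208* (SE; limma adjusted p of 0.931, 0.954 and 0.983). Male minus female over both strains was 0.014 ± 0.027 for miR-499, 0.045 ± 0.061 for miR-208b-3p and -0.072 ± 0.052 for miR-208* (SE; limma adjusted p of 0.970, 0.970 and 0.926). With limma, 0 of the 233 tested miRNAs were called for either contrast, with 23 at an unadjusted p under 0.05 for sex and 9 for the interaction.

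The choice of scale moved the direction of these differences. Over 6 scalings (the percentile over detected probes, the percentile over all probes, quantile, median, spike-in and none), miR-499 was lower in HHR under 4 and called lower under 2, with differences from -0.28 to 0.060. It was called lower under quantile normalization (-0.19, limma adjusted p = 0.00112), as 16.3% of all tested miRNAs were, and not under median centring (-0.11, adjusted p = 0.143). Apart from quantile normalization, these scalings move all miRNAs of an array alike, so the distance from the median of the tested miRNAs is nearly the same under them by construction, and it was -0.17 for miR-499. Quantile normalization, which could change that distance, gave -0.21. With the normexp background correction, which added an offset of 50 units before scaling, the miR-499 difference was -0.25, 0.047 below the median. That median was itself -0.20, and 70% of the tested miRNAs were called lower. The part of the offset in this was not tested. In the authors' deposited table, miR-499 read 0.030 and lay 0.035 below the median. There miR-208b-5p, with 0 of 320 spots well above background, still read 6.06 to 6.14 log2 units. Distances from the median in that table are therefore not directly comparable with those given above. miR-208* and miR-208b-3p were lower in HHR under the scaling used here alone. Both read higher under the other 5. Except with quantile normalization, their differences were smaller than the shift of the median of all tested miRNAs, 0.17 to 0.34. With quantile normalization that shift was 0.13, and both arms also moved from below the median to above it. miR-208* was called higher with the percentile over all probes (0.15, limma adjusted p = 0.0277), as 57.5% of the tested miRNAs were. Relative to the median, miR-208* was -0.027 and miR-208b-3p -0.059 with the scaling used here, and 0.088 and 0.053 with quantile normalization.

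**Figure D4:**
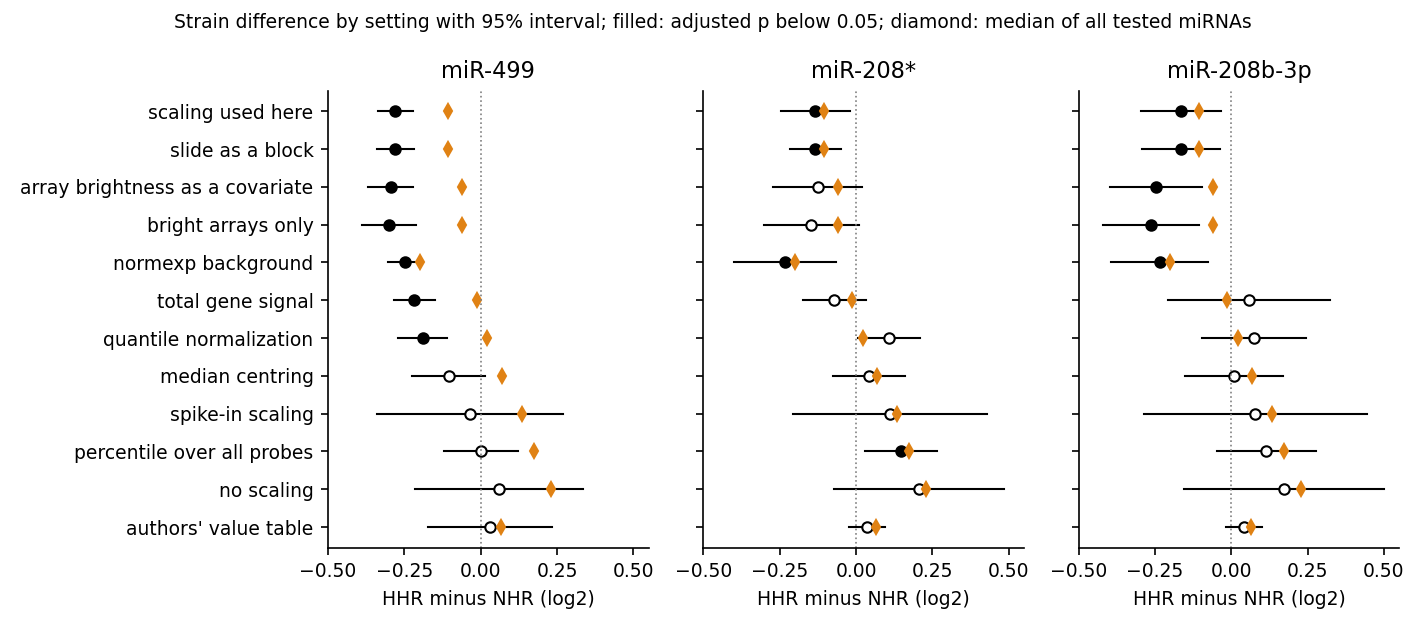
Strain difference of the 3 detected arms (x axis, log2, HHR minus NHR) under 12 ways of processing (y axis), with the 95% interval as a line, filled where the adjusted p was below 0.05; orange diamonds mark the median of all tested miRNAs under that setting. The miR-499 point stays left of the diamond in each row, close to it with normexp and in the authors' deposited table, while the miR-208* and miR-208b-3p points lie near the diamond, on either side of it, except with brightness as a covariate or bright arrays only, where miR-208b-3p lies further left.

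A ratio of miRNAs on the same array does not depend on the scale. Its value on one array compares different probes and has no meaning as an abundance, so only its change between strains is read, which shows unequal change and not which of the pair changed. In all 9 such ratios were compared: those among the 3 arms, and each arm against miR-1 and miR-133a, the abundant miRNAs of heart muscle. The log2 ratio of miR-499 to miR-133a was -1.02, -0.92, -1.05 and -0.98 in HHR females and -0.90, -0.98, -0.97 and -0.95 in HHR males. In NHR females it was -0.69, -0.78, -0.67 and -0.82, and in NHR males -0.76, -0.65, -0.82 and -0.82. All 8 HHR arrays were below the lowest NHR array. The mean difference was -0.22 (two-sided exact permutation p = 0.000155, adjusted over 9 ratios 0.00140). The unadjusted p is the smallest that 12870 splits can give. miR-133a itself read -0.059, above the median of -0.11 over all tested miRNAs. Against one common reference the order of mean differences stays, so 24% of the tested miRNAs again had a lower one than miR-499. How many of them would also separate or pass against miR-133a or miR-1 was not counted.

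The ratio of miR-499 to miR-1 ran from -5.29 to -5.18 in HHR (median -5.23) and from -5.21 to -4.83 in NHR (median -5.05), with 5 of 8 HHR arrays below all of NHR. Its difference was -0.18 (exact permutation p = 0.000622, adjusted 0.00280). Both ratios kept their call without any single array, and they read -0.16 (miR-133a) and -0.19 (miR-1) in the authors' deposited table (exact permutation, adjusted p = 0.00140 each). Within the slides the differences from miR-133a were -0.24 and -0.20 and those from miR-1 were -0.15 and -0.21. With 4 against 4 arrays none of these passed after adjustment (exact permutation, adjusted p = 0.129 on the first slide and 0.257 on the second).

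Among the 3 arms no ratio passed. miR-499 to miR-208* differed by -0.15 (exact permutation p = 0.0260, adjusted 0.0779), and passed only without HHR male 1 (-0.18, adjusted p = 0.0219) or NHR female 4 (-0.17, adjusted p = 0.0284). miR-499 to miR-208b-3p differed by -0.11 (exact permutation, adjusted p = 0.183), so a larger fall of miR-499 than of the miR-208 arms was not shown. The ratio of miR-208b-3p to miR-208*, the beta to the alpha myosin gene's detected arm, differed by -0.032 (exact permutation, adjusted p = 0.693). It spanned -0.35 to 0.16 in HHR and -0.43 to 0.055 in NHR. Against miR-1 and miR-133a, miR-208* differed by -0.033 and -0.074 and miR-208b-3p by -0.065 and -0.11 (exact permutation, adjusted p from 0.225 to 0.693).

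**Figure D5:**
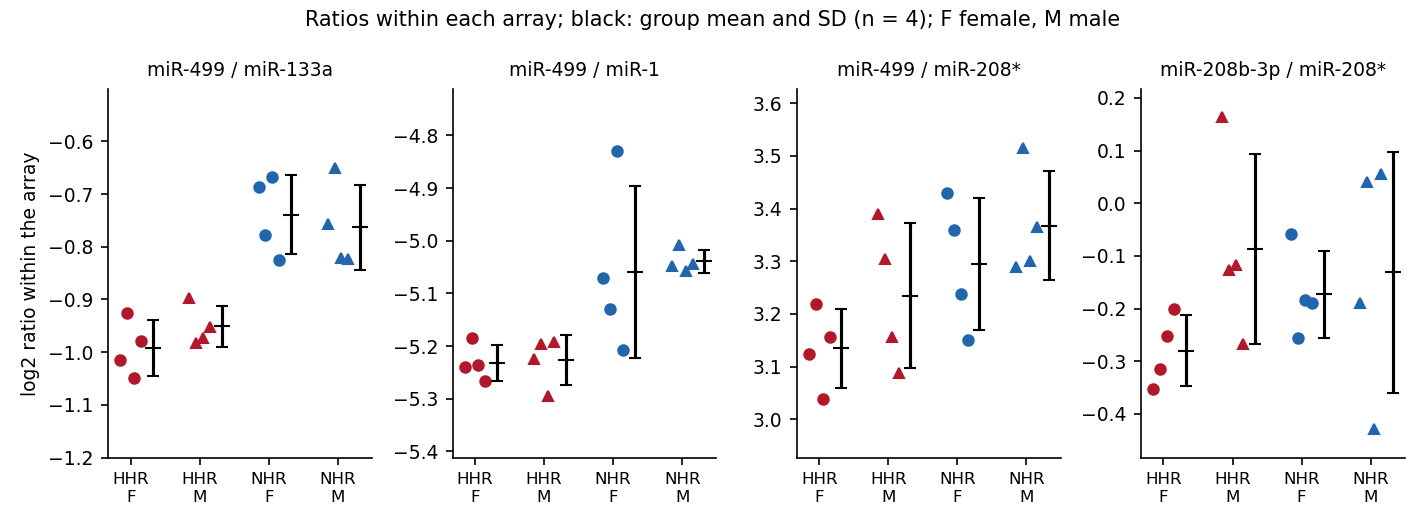
Log2 ratio of scaled levels within each array (y axis; all panels span the same range) for 4 pairs, by group (x axis), 1 point per animal with the group mean and SD in black (n = 4). For miR-499 over miR-133a the 8 HHR arrays lie below the 8 NHR arrays; for miR-208b-3p over miR-208* the groups overlap throughout.

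The other muscle miRNAs were taken as a list of 8, of which 7 were on the array and 6 could be tested. In HHR 2 of the 6 fell, a share not above the 45.5% called lower among all 233 tested miRNAs, and none rose. They were miR-1*, the star arm of miR-1, which fell by 0.38 ± 0.13 (SE; limma adjusted p = 0.0272), and miR-133b, which fell by 0.15 ± 0.031 (adjusted p = 0.00132). miR-1 read -0.10 (limma adjusted p = 0.0526), miR-133a -0.059 (0.0788), miR-133a* -0.046 (0.580) and miR-206, the skeletal muscle miRNA, -0.40 (0.417), detected on 4 arrays only. The median of the 6 was -0.13, near the -0.11 of all tested miRNAs. For some of them the sign depends on the scale: miR-1 turned positive under 5 of the 6 scalings and miR-133a, miR-133a* and miR-133b under 4. miR-1* and miR-206, whose differences were larger than the shift between scalings, stayed negative.

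RNA of the whole tissue was measured, so fewer cells of a type and less RNA per cell cannot be told apart. Marker miRNAs of other cell types moved between the strains as well, and their counts stand beside the 45.5% of all tested miRNAs called lower and the 9.01% called higher. The endothelial list was lower in HHR in 2 of 2 members, though its median turned positive under 3 of the 6 scalings, with summed scaled levels of 964 to 1077 in HHR and 1157 to 1272 in NHR. Both smooth muscle miRNAs were lower (1265 to 1336 against 1392 to 1477), with a median positive under 4 scalings. Of 3 tested leukocyte miRNAs 2 were lower (92.1 to 106.9 against 109.8 to 148), with a median negative under all 6. Among the latter miR-150 fell by 0.53 and, of the liver and kidney list, miR-192 by 0.82, both negative under all 6 scalings. miR-192 was the only tested member of its list of 3, whose summed levels were 9.66 to 11.1 in HHR and 14.9 to 19.0 in NHR. Of the others, miR-122, the defining liver miRNA, was detected on no array and miR-194 on 1. Of 3 fibroblast miRNAs 1 was higher (1243 to 1657 against 1175 to 1449) and 0 of 2 erythroid miRNAs were called (198.9 to 307 against 209 to 332); the medians of both lists were positive under all 6 scalings. The neural miR-124 and miR-9 were detected on no array. The summed level of miR-206, the skeletal list, was 1.88 to 6.56 in HHR and 1.88 to 10.65 in NHR, where 1.88 is the floor. Their part in the miR-499 difference was not tested. The heart muscle markers miR-1, miR-133a, miR-133b, miR-208b-3p and miR-499 were detected on all 16 arrays, and miR-208, the remaining marker of that list, on none.

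Across the 16 arrays the arms did not rise and fall closely together. Pearson's r of the scaled log2 levels was 0.61 between miR-208b-3p and miR-499, 0.54 between miR-208* and miR-499 and 0.34 between miR-208* and miR-208b-3p, and with the group means taken off it was 0.17, 0.088 and 0.11. All levels of an array share its scale and its RNA. Of 183 other miRNAs detected on all arrays, the most like miR-499 were miR-362* (r = 0.96), miR-362 (0.96), miR-532-5p (0.95), miR-500 (0.94) and miR-150 (0.93), against a median r of 0.53. With group means removed these became 0.41, 0.67, 0.14, -0.011 and 0.075, so for 4 of the 5 most of the likeness lay in the group means. The nearest to miR-208* were miR-3593-3p (0.83), miR-125a-3p, miR-290, miR-181d and miR-181b (0.75), against a median r of 0.41; with group means removed these were 0.80, 0.71, 0.69, 0.70 and 0.57. miR-208b-3p was most like miR-30e (0.78), miR-301a, miR-30a, miR-872 and miR-301b (0.72), against a median of 0.24; with group means removed these were 0.71, 0.68, 0.65, 0.66 and 0.63. For these dimmer arms the likeness lay largely within the groups.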

How the data were processed

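Agilent Feature Extraction 10.7.3.1 read the spots and subtracted background, giving an intensity on a linear scale, per the file headers; the authors deposited these scanner files, with the software's other marks for spots well above background and miRNAs detected. A second file, the deposited log2 table, has column medians of 6.13 to 6.15 and correlated with the median spot signal at r = 0.998 to 0.999; its background step, scale and centring stay unknown; the submitters' processing notes name limma. Spots of a probe were averaged without outliers, arrays were scaled by the 75th percentile, a miRNA's probes were averaged before taking logs and levels were raised to a floor of 1.88 before log2. A probe was taken as well above background if most spots carried the mark, and miRNA detection followed the software's mark. limma 3.58.1 in R 4.3.3 fitted 4 group means over 16 arrays, with Benjamini-Hochberg adjustment over 233 miRNAs and a threshold of 0.05; it was tested on simulated data. Ratios used exact permutation tests (scipy 1.17.1). Each of the 2 slides held 2 arrays of every group. The named miRNAs were the arms, all tested members of the muscle list, the 5 most correlated miRNAs per detected arm, and cell type markers called with a difference above 0.5. The members and lists were chosen with earlier results of these data known. The number of arrays limits the precision. Alternatives covered scaling, background, floor, detection filter, moderation, slide and replicate blocks, and leaving out each array.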

Additional observations from a re-analysis of the deposited data

Results flagged for a closer look

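In 2 cases Dixon's criterion at the 95% level marked 1 animal apart from the other 3 of its group. In all 52 groups were examined, and chance marks about 1 in 20. The log2 ratio of miR-208* to miR-133a in HHR female 3 was -4.09, against -4.14 in each of the other HHR females, which agreed closely. The SD of this ratio over all HHR arrays was 0.088. The unscaled brightness of the array of NHR female 3 was 502.9 intensity units, against 320 to 327 in the other NHR females.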

How the results depend on the processing

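The miR-499 strain difference kept its direction and its call under the alternatives run on it other than those of scale and the authors' deposited table, and in each of the 16 fits without one array. The log2 differences that follow are HHR minus NHR for miR-208*, miR-208b-3p and miR-499 in that order, and the cause of each change was not tested. With quantile normalization they were 0.11, 0.075 and -0.19 (limma adjusted p = 0.0797, 0.476 and 0.00112), with the percentile over all probes 0.15, 0.11 and 0.00046, with no scaling 0.21, 0.17 and 0.060, with median centring 0.041, 0.0091 and -0.11, with spike-in scaling 0.11, 0.079 and -0.035, and 0.035, 0.042 and 0.030 in the authors' deposited table. For miR-208* and miR-208b-3p alone, the total gene signal gave -0.071 and 0.057, the mean of log2 probe values -0.12 and -0.16, trend and robust moderation -0.13 and -0.17 (limma adjusted p = 0.0703 and 0.0513), the first slide -0.15 and -0.19, and the second slide -0.12 and -0.14. For miR-208*, array weights gave -0.12, brightness as a covariate -0.13 and bright arrays only -0.15. In the same order miR-208b-3p was called lower at -0.17, -0.25 and -0.26 (limma adjusted p = 0.0244, 0.0168 and 0.0223). Of all tested miRNAs 47.2%, 25.3% and 21.9% were called lower there. Relative to the median, miR-208b-3p was -0.063, -0.19 and -0.20, and miR-499 -0.19, -0.23 and -0.24. The setting with bright arrays only (8 HHR and 3 NHR arrays above 400 units) was chosen after seeing the data. Without one array, miR-208* ranged from -0.16 to -0.11, miR-208b-3p from -0.20 to -0.14, and miR-208b-3p in females from -0.30 to -0.20.

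In females the 3 differences were 0.16, 0.056 and a called miR-499 with quantile normalization, 0.19, 0.081 and 0.029 with the percentile over all probes, 0.30, 0.19 and 0.14 with no scaling, and 0.087, -0.021 and -0.073 with median centring. In males they were 0.054 and 0.094 for the miR-208 arms with quantile normalization, 0.10, 0.15 and -0.028 with the percentile over all probes, 0.11, 0.16 and -0.018 with no scaling, and, for miR-208b-3p and miR-499, 0.039 and -0.14 with median centring. No sex or interaction contrast of an arm was called under any alternative. The sign of the miR-499 interaction turned with quantile normalization (-0.064) and median centring (-0.064), the percentile over all probes (-0.057) and no scaling (-0.16), and that of miR-208b-3p with no scaling (-0.032). The miR-499 sex difference was -0.0071 with no scaling. Without one array it ran from -0.00042 to 0.028, the miR-499 interaction from -0.0083 to 0.048 and that of miR-208* from -0.057 to 0.041.

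The number of miRNAs called for strain, 127, became 70 with the total gene signal, 48 with no scaling, 25 with spike-in scaling, 15 in the authors' deposited table, 37 and 47 within the slides, 74 with brightness as a covariate and 61 with bright arrays only. Calls for sex ran from 0 to 10 without one array: 10 without NHR male 1, 3 without HHR male 3, 2 without HHR male 4 and 1 each without NHR female 1 and NHR male 4. Those called higher in HHR made up 9.01% of tested miRNAs here and 57.5% with the percentile over all probes, and those called lower 45.5% and 9.01%.

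Of the other muscle miRNAs, 2 called here, 0 were called with no scaling, the total gene signal, quantile normalization, median centring, spike-in scaling, the authors' deposited table, either slide or bright arrays only, 1 with brightness as a covariate, and 4 with the percentile over all probes or array weights; without one array, 1 to 4. The differences of miR-1, miR-133a, miR-133a* and miR-133b turned to 0.18, 0.22, 0.23 and 0.13 with the percentile over all probes, 0.24, 0.28, 0.29 and 0.19 with no scaling, 0.074, 0.12, 0.13 and 0.024 with median centring, 0.14, 0.19, 0.20 and 0.094 with spike-in scaling, and 0.22, 0.19, 0.19 and 0.18 in the authors' deposited table. miR-1 was 0.0088 with quantile normalization and 0.0012 with bright arrays only. miR-133a was 0.0032 with the total gene signal, where miR-133a* was 0.017; miR-133a* was 0.0044 on the first slide, 0.032 with brightness as a covariate and 0.077 with bright arrays only.

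For the ratios, the total gene signal turned miR-208b-3p over miR-208*, miR-1 and miR-133a to 0.13, 0.095 and 0.054, and the authors' deposited table turned miR-208b-3p over miR-208* to 0.0065. With bright arrays only, miR-208b-3p over miR-1 passed (-0.24; exact permutation, adjusted p = 0.0364). The miR-499 ratios to miR-1 and miR-133a lost their call only within the slides, at -0.15 and -0.24 on the first and -0.21 and -0.20 on the second. There the exact test had too few splits to be likely to pass after adjustment. Without one array, miR-499 over miR-208* ran from -0.18 to -0.12 and miR-208* over miR-1 from -0.054 to 0.012, the latter without NHR female 3. Brightness differed by 106 units on the first slide and 76.0 on the second (exact permutation p = 0.114 and 0.229).

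The replicate numbers of the labels were not taken to pair the animals, since a residual correlation over 0.1 was required in every pair with the same number and 16 of 24 pairs had it (-0.22 to 0.53 over all 24). Of the 16 arrays, 6 correlated best with their own number. With the replicate block, miR-499 was -0.28 (limma adjusted p = 3.55e-05), miR-208* -0.13 (0.0173) and miR-208b-3p -0.17 (0.0299), 124 miRNAs were called for strain and 1 for sex.

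Signal limits the dim arms: miR-208, miR-208b-5p and miR-499* gave bounds only, and miR-208* and miR-208b-3p had only 1 probe each that was called by itself.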
